A study of Mus musculus with 11 samples.

Results

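The genes described here are Dntt and 8 transcription factors of the lymphoid lineages, Ikzf1, Ikzf3, Tcf3, Ebf1, Pax5, Tcf7, Bcl11a and Bcl11b, out of 24061 genes with enough data for a test in LSK cells. Their DNA methylation was taken from every C position covered by 10 or more reads between 1 kb before and 1 kb after each gene's span in the GRCm38 assembly. These windows held 2324 C positions listed in at least 1 of the 10 grouped libraries, of 1926472 in the genome, and 1648 listed in all 10. The libraries came from enhanced reduced representation bisulfite sequencing, which reads methylation next to CCGG sites cut by the enzyme MspI. The knockout groups, labelled cKO_Mx+, were C57BL/6 mice with a floxed Dnmt3a gene and Mx1-Cre, a recombinase under an interferon-inducible promoter, and supplied 3 LSK and 2 GMP libraries. The control groups carried the floxed gene without Cre and also supplied 3 LSK and 2 GMP libraries. Mice of both genotypes were 12 months old and had received 5 injections of poly(I:C), which turns the Mx1 promoter on. LSK are Lin- Sca1+ cKit+ marrow cells, the fraction with the stem cells, and GMP are Lin- Sca1- cKit+ CD34+ FcgR+ cells, the granulocyte-macrophage progenitors. The labels do not state which libraries share an animal, and p-values measure only the spread between libraries, which may be technical.

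Dnmt3a places methyl groups on unmethylated CpG sites. Lymphoid fate is set in steps: Ikzf1 (Ikaros) and Tcf3 (E2A) act in early multipotent and lymphoid progenitors, Ebf1 and then Pax5 commit cells to the B lineage, Tcf7 (TCF-1) and Bcl11b commit cells to the T lineage, Bcl11a is needed for early B cells, and Ikzf3 (Aiolos) acts in later lymphocytes. Dntt encodes terminal deoxynucleotidyl transferase, which adds untemplated bases when antigen receptor genes are joined and is used as a mark of lymphoid priming. GMP give rise to granulocytes and macrophages and have largely lost lymphoid potential, while LSK cells still hold it.

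The starts differ in how many CG and CCGG lie just upstream of them, as 3 sequences show. Each is the 250 bases before a RefSeq start on GRCm38.p6, 5′ to 3′ on the gene's strand, with CG in capitals: Dntt, plus strand, chr19:41029025-41029274; the first Ebf1 start, plus strand, chr11:44617850-44618099; and Pax5, minus strand, chr4:44710695-44710944.
Dntt: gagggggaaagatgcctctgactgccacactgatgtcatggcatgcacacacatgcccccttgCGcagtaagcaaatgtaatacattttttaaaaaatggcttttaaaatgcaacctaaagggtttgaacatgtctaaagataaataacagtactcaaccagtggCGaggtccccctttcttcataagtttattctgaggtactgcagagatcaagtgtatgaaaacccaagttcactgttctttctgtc
Ebf1: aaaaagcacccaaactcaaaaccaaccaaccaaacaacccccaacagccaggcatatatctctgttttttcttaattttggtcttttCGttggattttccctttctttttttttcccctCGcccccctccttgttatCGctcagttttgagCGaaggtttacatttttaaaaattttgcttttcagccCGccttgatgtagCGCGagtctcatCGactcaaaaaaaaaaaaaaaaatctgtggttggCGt
Pax5: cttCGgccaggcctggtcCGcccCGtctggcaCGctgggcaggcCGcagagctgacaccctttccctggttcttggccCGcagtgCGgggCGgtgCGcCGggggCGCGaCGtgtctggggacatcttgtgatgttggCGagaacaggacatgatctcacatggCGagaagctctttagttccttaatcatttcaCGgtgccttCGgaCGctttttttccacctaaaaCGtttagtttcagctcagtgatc
The Dntt sequence held 2 CG and 0 CCGG, that of Ebf1 9 CG and 0 CCGG, and that of Pax5 19 CG and 1 CCGG. CCGG reads the same on both strands, contains a CG, and occurred in 47.1% of 32851 upstream sequences of the same length, whose median was 6 CG. Neither the Dntt nor the Ebf1 sequence had a C position listed in all 10 libraries, and the Pax5 sequence had 5. Within 1 kb of the first Ebf1 start, outside the stretch shown, 42 positions were listed in all libraries. The 250 bases before the first listed Ikzf1 start held 44 CG and 6 CCGG, with 42 such positions. Upstream sequences were matched for 8 of the 9 genes.

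Summed coverage was 157.4 to 181.1 M reads (M, 1e6) over C positions in LSK libraries and 95.4 to 109.7 M in GMP libraries, so GMP levels rest on fewer reads. LSK and GMP were made as separate sets of libraries. In every comparison of GMP with LSK below, cell population and library set therefore cannot be told apart. A stretch of Dnmt3a on chromosome 12 (3903653 to 3904031) had its 5 C positions listed in every control library and in none of the 3 knockout LSK libraries. The GMP libraries labelled knockout still listed 4 positions (library 178) and 5 positions (library 179), with coverage relative to 10-kb flanks at 27.9% and 53.3% of the control GMP mean. This limit applies to every direction given below for the GMP libraries labelled knockout. An eleventh library, 352, had conflicting genotype labels, listed 0 of the 5 positions and was kept out of all groups. C positions on chromosome Y numbered 1226 to 1470 in knockout LSK 1327, control LSK 1326 and the 4 GMP libraries, and 211 to 229 in the other 4 LSK libraries. Knockout LSK 1333 stood apart: it listed 129024 positions found in no other LSK library, against 8117 to 26078 for the other 5. Its tiles differed from those of 1327 with a mean chi-square of 15.8 per tile. Against 1334 the value was 10.2, near the range of the LSK pairs of 1 genotype without 1333, 5.32 to 9.97. By this measure it stood apart from 1327 only.

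Several of the genes were nearly unmethylated at a start, while levels elsewhere in the genes covered the whole range. Of the 109 tiles of 1000 bp that could be compared in all 10 libraries, 35 lay under 20% in control LSK, 23 between 20% and 80%, and 51 at 80% or more. In control LSK 58.5% of the 1648 positions had a level under 5% and 27.2% a level over 80%, beside 58.4% and 30.5% of all 1293035 positions. Within 1 kb of the listed start (for Ikzf1 the first listed start), Ikzf1 ranged from 0.0605% to 0.446% over the 10 libraries (142 positions), Tcf3 from 0% to 0.432% (65 positions) and Bcl11a from 0.0580% to 0.453% (55 positions). The first Ebf1 start ranged from 0.282% to 0.914% (42 positions), and the high-coordinate end of Ikzf3 from 0.0621% to 1.16% (45 positions). Levels at those places were low in knockout and control libraries of both populations.

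Other starts were not as bare within 1 kb. Bcl11b ranged from 1.36% to 3.54% (95 positions) and the first listed Tcf7 start from 4.55% to 7.72% (119 positions). The second listed Tcf7 start ranged from 4.85% to 7.59% (124 positions). Just upstream it was bare: the 250 bases before it ranged from 0.0704% to 0.66% (24 positions). Those before the first ranged from 1.81% to 6.74% (14 positions). Pax5, read at only 5 positions, averaged 6.35% ± 1.26 in GMP labelled knockout and 11.1% ± 3.25 in control GMP (SD, n = 2 each), and 4.43% ± 2.87 in knockout LSK and 5.16% ± 1.93 in control LSK (SD, n = 3 each). The second Ebf1 start had the highest level of the starts, 20.2% ± 3.81 in knockout LSK and 25.6% ± 4.16 in control LSK (SD, n = 3 each, 15 positions), and 17.6% ± 1.71 in GMP labelled knockout and 18.8% ± 2.66 in control GMP (SD, n = 2 each). Knockout and control LSK libraries overlapped at it. No position within 1 kb of the Dntt start or of the second listed Ikzf1 start was listed in all libraries.

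**Figure D1:**
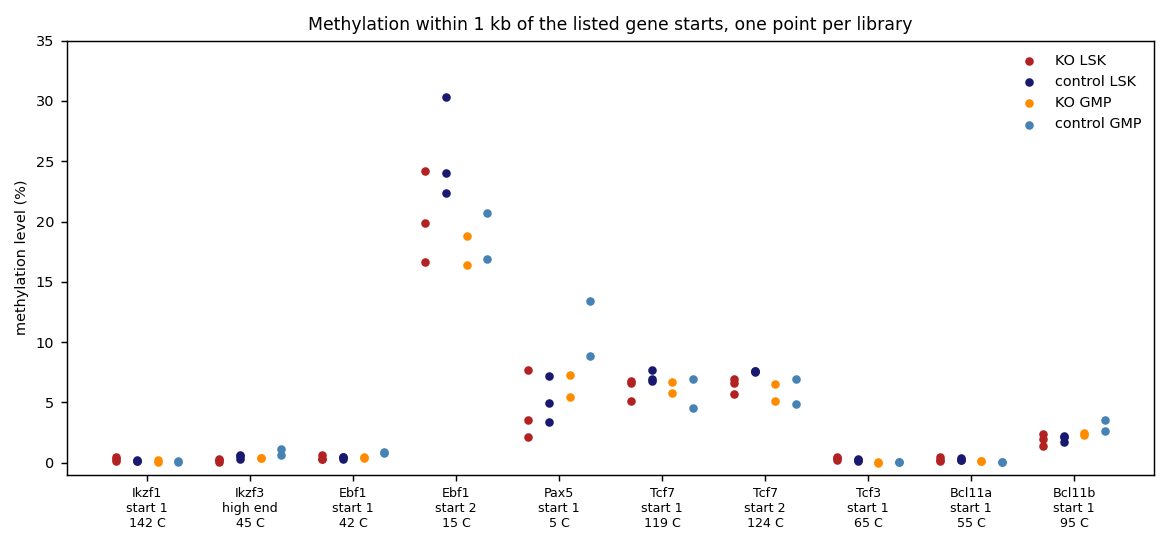
Methylation level (%) within 1 kb of each listed start that had positions listed in all libraries, with 1 point per library and the number of C positions (C) under each name. For Ikzf3 the high-coordinate end of the gene is shown. The second Ebf1 start stands highest, at 16.4% to 30.3%, while Ikzf1, Tcf3 and Bcl11a lie under 0.5% in all 10 libraries.

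For tests, positions were summed in tiles of 1000 bp with at least 3 positions listed in every library compared. Tiles that overlap a gene's window were used whole, and 2 of them, in Tcf7 and Bcl11b, hold positions beyond it. Methylated and unmethylated reads were compared by a quasi-binomial model with limma-moderated dispersion, and p-values were adjusted by Benjamini-Hochberg over all tiles of the genome. A tile was called at an adjusted p under 0.05 when the pooled levels of its groups also differed by 20 percentage points (points below) or more. Of the tiles of these genes, 0 of 114 were called between knockout and control LSK, beside 0.873% of 107074 tiles genome-wide, and 0 of 115 between GMP labelled knockout and control GMP, where 0% of 107150 tiles were called. Between control GMP and control LSK 1 of 109 was called, in Dntt, beside 0.904% of 100150 tiles. With so few tiles these shares are near those of the genome.

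Dntt was read at a single tile, 10.2 kb downstream of its start and inside the gene (chr19:41039001-41040000). Its level was lower in the control GMP libraries than in the control LSK libraries. Control GMP libraries had 7.06% and 5.47%, against 29.6%, 31.0% and 25.5% in control LSK libraries. The groups did not overlap: the control means were 6.26% ± 1.12 in GMP (SD, n = 2) and 28.7% ± 2.88 in LSK (SD, n = 3), a pooled difference of -22.7 points (adjusted p = 0.0426, quasi-binomial model). The tile holds 5 C positions, 41039277, 41039283 and 41039319 on the plus strand and 41039320 and 41039363 on the minus strand. The positions of 1 strand lie within the length of a 50-base read and had nearly the same coverage, for instance 101, 99 and 100 reads on the plus strand in control GMP 346, so they largely share reads.

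Each strand gave the same order between the controls. At position 41039277 the level was 6.93% and 3.26% in control GMP, against 26.8%, 22.8% and 25.9% in control LSK, and at 41039320 it was 6.06% and 6.42% in control GMP, against 33.3%, 44.0% and 34.6% in control LSK. The call was near its threshold: it was lost in 12 of 17 alternatives, which gave differences of -24.1 to -21.5 points and adjusted p from 0.00202 to 0.457. Leaving out control GMP 346 or 349 gave an adjusted p of 0.301 or 0.332, and leaving out control LSK 1326, 1330 or 1331 gave 0.0951, 0.138 or 0.0834. The control GMP libraries and 2 of the 3 control LSK libraries also differ in listed Y positions. With only the 6 libraries rich in Y positions, which leave 1 control LSK library and take the spread from the GMP groups, the difference was -23.4 points (adjusted p = 0.457). That fit called 0 tiles of the genome, so its adjusted p says nothing about the stability of the call.

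Neither knockout comparison called the Dntt tile. GMP labelled knockout had 6.75% in library 178 and 16.9% in library 179, against 7.06% and 5.47% in control GMP, a difference of 5.10 points (adjusted p = 0.675). Knockout LSK had 19.7%, 36.4% and 19.7%, against 29.6%, 31.0% and 25.5% in control LSK, a difference of -3.35 points (adjusted p = 0.808). Library 1333 was above every control and the other 2 knockout LSK libraries below every control, so the groups overlap. Without 1333 the difference was -9.25 points and was not called (adjusted p = 0.0841). In 1333 the plus strand was the high one, with 51.1% at position 41039283, while its minus strand had 24.6% at 41039320.

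**Figure D2:**
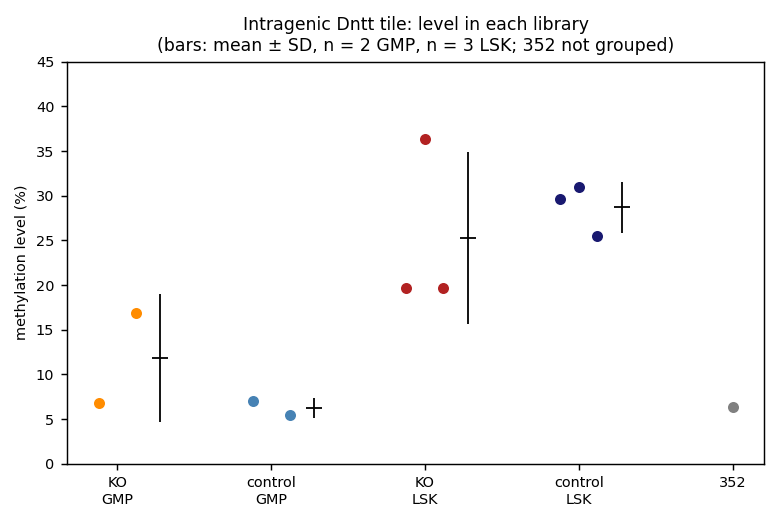
Methylation level (%) of the Dntt tile 10.2 kb downstream of the start, with 1 point per library; crosses give the mean ± SD (n = 2 in GMP, n = 3 in LSK), and library 352 is not grouped. Control GMP lies at 5.47% and 7.06%, under all 6 LSK libraries, which lie between 19.7% and 36.4%.

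Ikzf1 and Ikzf3, zinc finger factors of the Ikaros family, had no tile with a knockout difference of 10 points. Ikzf1 was unmethylated at its first listed start and methylated at its 3 far tiles in LSK. Its largest difference in LSK, at chr11:11754001-11755000, came from 97.9%, 100% and 100% in knockout, against 100%, 91.0% and 94.7% in control (4.66 points, adjusted p = 0.437). Its largest in GMP, at chr11:11758001-11759000, was -1.39 points, with 91.5% and 98.3% in the labelled knockout and 98.1% and 95.3% in control. Groups overlapped at both tiles.

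In Ikzf3 the largest GMP difference lay at chr11:98542001-98543000. The labelled knockout had 68.9% and 77.1%, against 78.9% and 84.3% in control GMP (-9.65 points, adjusted p = 0.604). Groups did not overlap there, which was so, in the lower direction, for 25.9% of all tiles in GMP. In LSK the largest Ikzf3 difference was -2.41 points, at chr11:98501001-98502000, with 93.7%, 83.0% and 89.2% in knockout and 92.0%, 91.5% and 89.7% in control, and the groups overlapped. It rested on library 1333: without it the difference was 0.493 points.

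Tcf3, the E protein partner of early lymphoid programmes, had the largest difference of pooled levels in LSK of the 9 genes, at a tile 2.13 kb downstream of its start (chr10:80431001-80432000). Knockout LSK had 24.8%, 19.2% and 10.5%, against 28.9%, 38.5% and 50.8% in control LSK. Every knockout library was below every control, but the spread within each group was wide, with means of 18.2% ± 7.22 in knockout and 39.4% ± 11 in control (SD, n = 3 each). The pooled difference was -19.4 points and was not called (p = 0.0105, adjusted p = 0.177, quasi-binomial model). The library means lay farther apart at the Pax5 tile chr4:44602001-44603000, at 38.6% in knockout and 62.9% in control LSK. In GMP the Tcf3 tile had 29.5% and 20% in the labelled knockout, against 20.2% and 41.2% in control (-4.04 points, adjusted p = 0.902), and the groups overlapped. The tile holds 3 positions with a mean of 35.3 reads in LSK. Only position 80431888 separated the LSK groups, with 24.1%, 19.2% and 15.1% in knockout, against 51.1%, 56.5% and 60.5% in control. At position 80431692 the groups overlapped, and position 80431643 was nearly unmethylated in all LSK libraries. The difference of the tile in LSK therefore rested on a single position, and single positions were not tested.

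Ebf1, which specifies the B lineage, has a span of 390.0 kb and 22 LSK tiles, at levels from near 0 to over 90%. Its largest LSK difference lay 201.0 kb downstream of the nearest start (chr11:44821001-44822000), where knockout had 9.26%, 0.338% and 13.5%, against 16.7%, 6.21% and 24.1% in control (-10.4 points, adjusted p = 0.413). The groups overlapped, and without library 1333 the difference was -5.30 points. Its largest GMP difference lay at chr11:44768001-44769000, with 60.2% and 69.3% in the labelled knockout and 73.0% and 80.1% in control (-11 points, adjusted p = 0.599). Here the groups were apart.

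Pax5, which holds cells in the B lineage, was read at 27 LSK tiles. At chr4:44602001-44603000, 108.0 kb into the gene, knockout LSK had 61.2%, 22.2% and 32.4%, against 63.6%, 55.2% and 69.7% in control (-16.8 points, adjusted p = 0.498). Library 1327 lay among the controls and libraries 1333 and 1334 below them. The tile holds 3 positions with a mean of 47 reads in LSK, and 72 reads in all in 1333. In 1333 positions 44602625 and 44602786 had 0% (46 reads) and 30.8% (13 reads). Position 44602774 had 92.3% (13 reads) in 1333, above every control. Library 1334 was below every control at each position. Without 1333 the difference was -12.3 points. Without 1327 it was -33.9 points with an adjusted p of 0.0345, the only LSK tile call in these genes among the alternatives run. In GMP this tile lay at 69.9% and 74.4% in the labelled knockout and 71.1% and 77.4% in control. The largest Pax5 difference in GMP was at chr4:44591001-44592000, with 33.8% and 50.9% in the labelled knockout, against 52.7% and 65.2% in control (-17.7 points, adjusted p = 0.611), at a mean of 22.7 reads per position.

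Tcf7, the T lineage factor TCF-1, had small differences in LSK at the tiles on either side of the one with its second listed start. The tile with that start, at chr11:52283001-52284000 with 73 positions, had 2.52%, 2.55% and 2.62% in knockout LSK. Control LSK had 3.42%, 3.10% and 2.20% there, so the groups overlapped (-0.387 points, adjusted p = 0.706, quasi-binomial model). The tile at chr11:52282001-52283000, which holds the first listed start and 58 positions, had 12.9%, 12.1% and 11% in knockout LSK and 14.9%, 16.1% and 16.1% in control LSK. Every knockout library was below every control. Its adjusted p was 0.0470, or 0.360 with the dispersion prior taken from intermediate tiles only (pooled level of 5 to 95%), and its difference of -3.65 points was under the 20 points a call needs. The largest difference, 1.49 kb upstream of the nearest start (chr11:52284001-52285000), had 9.31%, 6.15% and 7.57% in knockout LSK, against 13.2%, 13.0% and 15.8% in control LSK (-6.18 points, adjusted p = 0.0650). The groups were apart there too. Of its 15 positions 10 lie beyond the window of the gene, and at the 5 inside it the groups overlapped, with 19.7%, 18.2% and 14.2% in knockout LSK and 18.9%, 21.4% and 24.4% in control LSK. In GMP the largest Tcf7 difference was 4.75 points (78.1% and 74.8% in the labelled knockout, 70.9% and 72.0% in control, adjusted p = 0.657), at chr11:52281001-52282000.

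Bcl11a, a zinc finger repressor needed for early B cells, was unmethylated over 7 of its 9 tiles shared by all libraries and intermediate at 1 tile 50.8 kb downstream of its start (chr11:24131001-24132000). Knockout LSK had 24.5%, 27.0% and 28.4% there, against 38.4%, 35.1% and 35.5% in control LSK (-9.65 points, adjusted p = 0.162). GMP labelled knockout had 11.3% and 7.12%, against 22.0% and 21.4% in control GMP (-12.6 points, adjusted p = 0.567). The groups were apart in both populations, at 7 positions in LSK and 5 in GMP. Knockout libraries were all below the controls at 15.0% of all tiles in LSK and at 25.9% in GMP. The share of all tiles where this held in both populations was not counted. It also held in both populations at tiles of Ebf1, Tcf7 and Pax5, so it was not particular to Bcl11a. Over the 5 positions listed in all libraries, control GMP had 22.0% and 21.4%, against 33.2%, 34.0% and 34.1% in control LSK (-12.0 points, adjusted p = 0.217). None of the 3 differences was called.

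Bcl11b, which locks in the T lineage, had the largest GMP difference of the 9 genes. At chr12:107971001-107972000, 31.9 kb into the gene, GMP labelled knockout had 42.6% and 42.1%, against 65.8% and 75.9% in control GMP (-27.6 points, p = 0.0143, adjusted p = 0.567 by the quasi-binomial model). The groups were apart, at 3 positions with a mean of 19.1 reads. It was the only tile of these genes whose pooled levels differed by over 20 points between knockout and control in either population. In LSK the tile had 55.6%, 23.6% and 57.5% in knockout and 56.0%, 48.9% and 48.7% in control, and the groups overlapped. The largest LSK difference of Bcl11b was at chr12:107940001-107941000, with 91.0%, 65.7% and 96.3% in knockout, against 97.7%, 95.2% and 89.7% in control (-9.46 points, adjusted p = 0.555). Library 1333 alone was low there, and without it the difference was -0.689 points. Its low level came from a single position, 107940935, at 0% of 23 reads. In the same library 107940907 and 107940952 were at 100%.

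**Figure D3:**
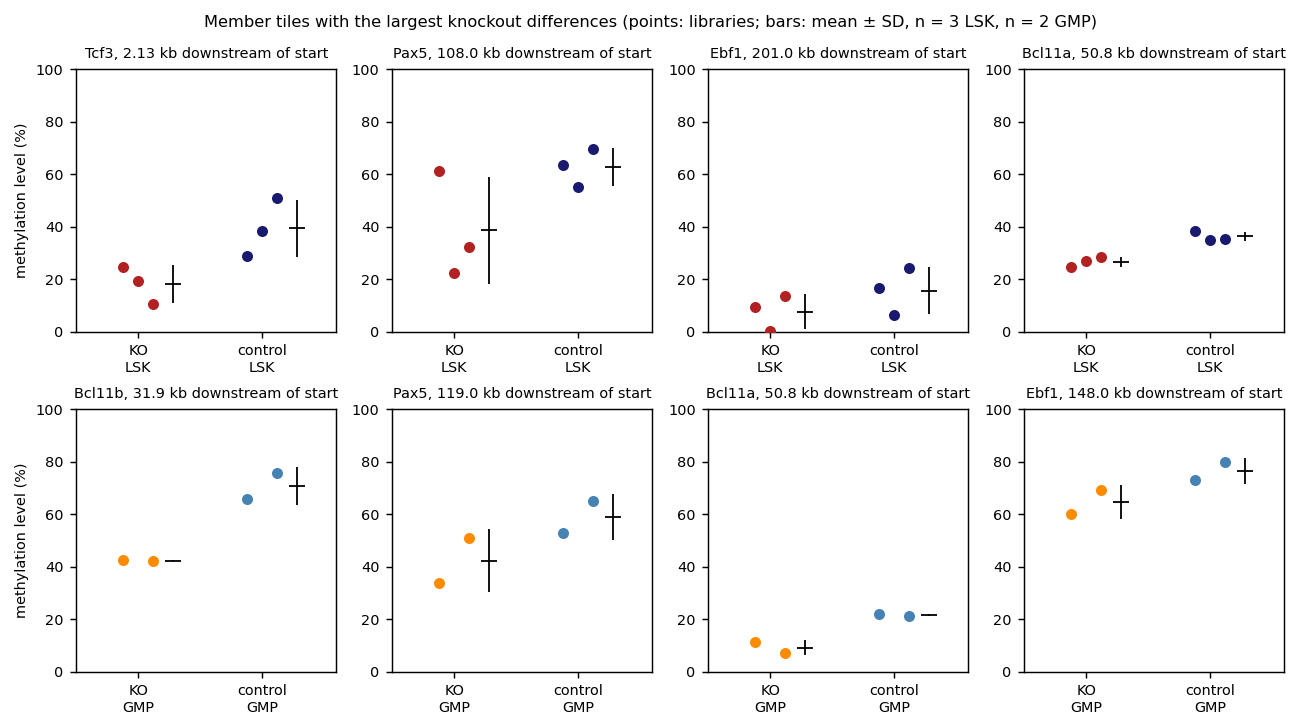
Methylation level (%) of the 4 tiles with the largest knockout differences in LSK (top row) and in GMP (bottom row), 1 per gene, with 1 point per library, knockout left of control, and crosses for the mean ± SD (n = 3 in LSK, n = 2 in GMP). The Bcl11a tile is lower in knockout libraries in both rows, and none of the 8 differences was called.

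**Figure D4:**
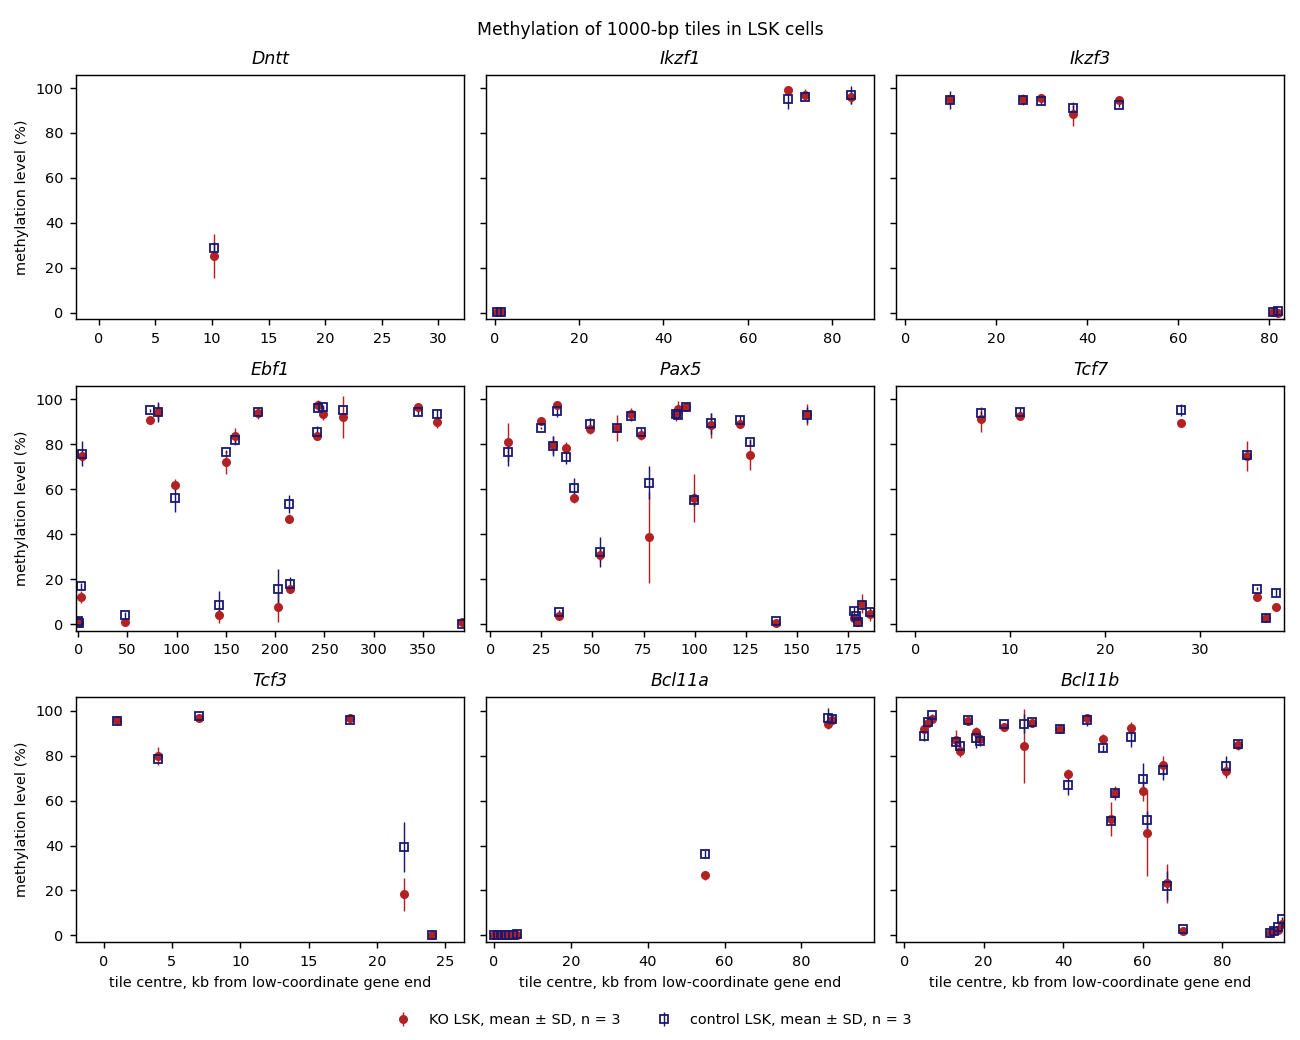
Methylation level (%) of each tile in LSK cells against its distance from the low-coordinate end of the gene (kb), as mean ± SD of 3 knockout (filled) and 3 control (open) libraries. Most points of the 2 genotypes lie on each other; the means lie farthest apart at a Pax5 tile, 38.6% ± 20.2 in knockout and 62.9% ± 7.30 in control, and at the Tcf3 tile, 18.2% ± 7.22 in knockout and 39.4% ± 11 in control.

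Taken over the 114 LSK tiles, differences ran from -19.4 to 6.20 points with a median of -0.295, beside a median of -0.374 over all tiles. Of these tiles 66 were lower and 48 higher in knockout, 101 were within 5 points, and 13 had an unadjusted p under 0.05 (11.4%, beside 13.1% of all tiles). Every knockout library was below every control at 15 tiles (13.2%, beside 15.0% of all), and above every control at 5 (4.39%, beside 3.39%). Over the 115 GMP tiles the median was -0.571, beside -0.346 over all tiles, with 7 unadjusted p under 0.05 (6.09%, beside 8.71% of all). Both labelled knockout libraries were below both controls at 40 GMP tiles (34.8%, beside 25.9% of all) and above them at 13 (11.3%, beside 11.3%). The prior from intermediate tiles called 0 of the 115, beside 0.278% of all tiles in GMP, and the limma test on logit levels called 0 of these tiles and 0 of all tiles in either population.

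Genome-wide, knockout differences were most negative at intermediate tiles, and the tiles of these genes were set beside them in classes taken from the other population's controls. At 20 to 80% in control GMP, the 21 tiles of these genes had a median LSK difference of -1.81 points, beside -4.01 points for all 13760 tiles of that class. At 20 to 80% in control LSK, their 23 tiles had a median GMP difference of -0.613 points, beside -2.77 points for all 13702. At 80% or more the medians in LSK were 0.284 points for 52 tiles and -0.612 points for all, and in GMP -0.472 points for 51 tiles and -0.853 points for all. Under 20% the order was the other way: in LSK the median was -0.382 points for 36 tiles, of which 69.4% were negative, beside -0.0446 points and 56.3% for all. In GMP it was -0.405 points for 35 tiles, of which 77.1% were negative, beside -0.0417 points and 56.6% for all. These are descriptions of a chosen set and were not tested.

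**Figure D5:**
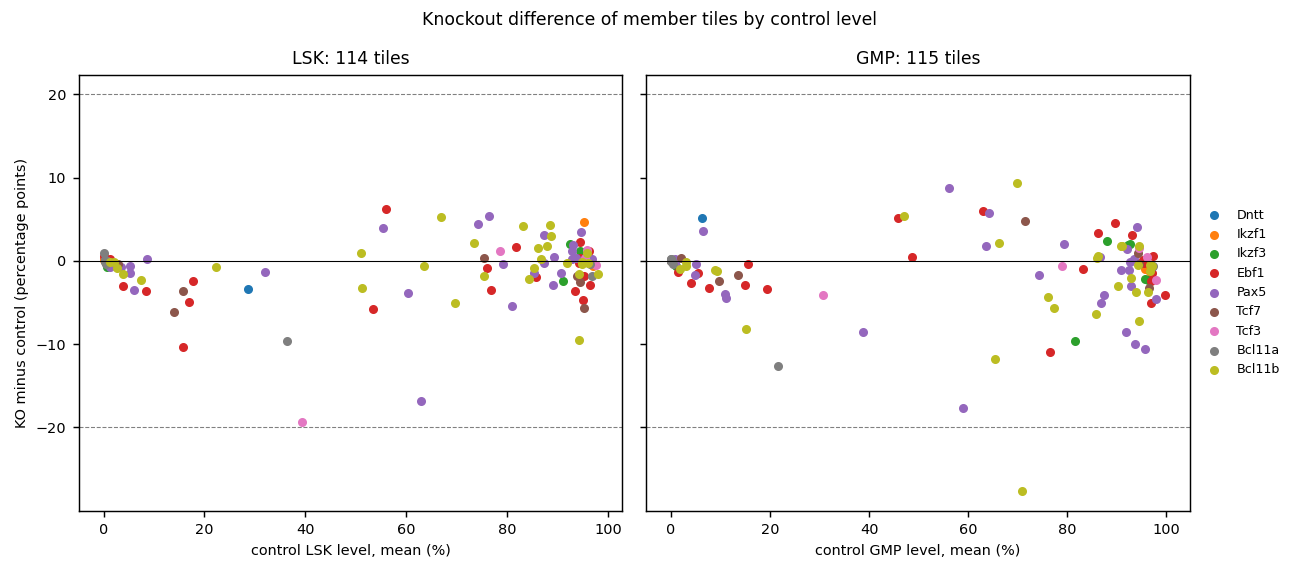
Knockout minus control difference (points) of each tile of the 9 genes against the mean control level (%), in LSK (114 tiles, left) and GMP (115 tiles, right); dashed lines mark 20 points. One tile, in Bcl11b in GMP at -27.6 points, lies beyond the lines. Tiles with control levels of 20% to 80% are not the only ones away from 0: the Pax5 tile at 95.8% in control GMP lies at -10.6 points.

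The difference between the knockout effects of GMP and LSK was tested in all 10 libraries. It was called at 0 of 109 tiles, beside 0.003% of all tiles, with 3 at an unadjusted p under 0.05 by the quasi-binomial model (2.75%, beside 5.68% of all tiles). Between control GMP and control LSK, 13 of the 109 tiles had an unadjusted p under 0.05 (11.9%, beside 11.2% of all tiles). Control GMP libraries were above every control LSK library at 24 tiles (22.0%, beside 13.9% of all), 9 of them in Pax5 and 8 in Bcl11b, and below at 14 (12.8%, beside 18.3%). The largest higher tile was the Bcl11b tile at chr12:107971001-107972000, with 65.8% and 75.9% in control GMP, against 56.0%, 48.9% and 48.7% in control LSK (18.0 points, adjusted p = 0.519).

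Whole gene windows, the span with 1 kb on either side, gave no call for the 9 genes (adjusted p under 0.05 and 10 points or more by the quasi-binomial model). In LSK their differences ran from -3.35 points (Dntt) to 0.603 points (Bcl11b), with 0 at an unadjusted p under 0.05 (beside 9.42% of all windows), while 0.362% of 24061 windows were called. In GMP they ran from -5.11 points (Tcf3) to 5.10 points (Dntt), where 0% of 24045 windows were called. The Tcf3 value lay below all 6 of its GMP tiles, whose lowest was -4.04 points and median -0.322 points. A window pools reads, so its level also depends on the share each tile holds. The nearly unmethylated tile with the Tcf3 start held 4190 of 6970 and 4630 of 8180 reads in the labelled knockout. In control GMP it held 2980 of 5990 and 4020 of 7320. How far this share made up the -5.11 points was not tested. The Ikzf3 window had the 1 unadjusted p under 0.05, beside 11% of all windows (-4.92 points, adjusted p = 0.394, quasi-binomial model). Its levels were 31.8% and 32.8% in GMP labelled knockout and 35.6% and 38.9% in control GMP. The limit of pooled reads applies here too. Of the 8 Ikzf3 tiles in GMP 4 were lower and 4 higher in the labelled knockout, 7 were within 5 points, and the median was -0.266 points. Between control GMP and control LSK 1.24% of 23558 windows were called, and 4 of the 9 windows had an unadjusted p under 0.05 (44.4%, beside 20.4% of all). These were Dntt and Tcf3, lower in GMP, and Bcl11a and Bcl11b, higher in GMP. The Tcf3 window averaged 42.3% ± 4.27 in control GMP (SD, n = 2), against 50.2% ± 2.42 in control LSK (SD, n = 3). Its pooled difference was -8.24 points, with an adjusted p of 0.181 by the quasi-binomial model. Of the 5 Tcf3 tiles in that comparison 4 were within 5 points, and their median was -0.167 points. The window value is therefore not a difference seen over the tiles of the gene. Bcl11a differed by 3.54 points (adjusted p = 0.229), and by -0.0310 points with positions of equal weight. Dntt, whose window holds the tile described above and nothing else, had an adjusted p of 0.0582, and Bcl11b had 45.8% ± 0.425 in control GMP (SD, n = 2), against 41.4% ± 1.11 in control LSK (SD, n = 3), with 4.47 points and an adjusted p of 0.0975. The difference of the knockout effects was called at 0 of the 9 windows, with 0 unadjusted p under 0.05 (beside 4.02% of all windows), and at 0% of all windows.

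A further 44 lymphoid genes were counted beside them, 33 of which had a testable window. Of their 292 LSK tiles 12 were called, all lower in knockout, beside 0.873% of all tiles; 6 lay in Runx3, a factor of CD8 T cells, and 1 each in Notch1, Zbtb7b, Foxp1, Pou2f2, Irf8 and Thy1. Their differences ran from -61.8 points in Runx3 to -21.0 points in Notch1, the receptor that starts the T programme. Of their 296 GMP tiles 0 were called, with 39 at an unadjusted p under 0.05 (13.2%, beside 8.71% of all tiles), and 3 were called with the prior from intermediate tiles, beside 0.278% of all tiles, in Runx3 (-26.3 points), Pou2f2 (-39.8 points) and Thy1 (-25.2 points). Between control GMP and control LSK 3 of 282 tiles were called, beside 0.904% of all tiles, all lower in GMP, in Bach2 (-31.3 points), Flt3 (-29.2 points) and Irf8 (-22.5 points), and the Lef1 window was higher in GMP (10.4 points, adjusted p = 0.0234). The list was chosen with results of these data known, so its count is a description.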

How the data were processed

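DNA methylation was measured by enhanced reduced representation bisulfite sequencing in 11 libraries of sorted mouse marrow cells; per the labels' protocols, MspI fragments of 150 to 400 bp were read as single ends of 50 bp. Bismark and the builds mm10 and GRCm38 are named in the submitters' processing notes; versions are not given in the sources used here. The deposited tables give, per C position, coverage as a read count (10 reads or more) and the percent of C and of T; the authors' filters beyond that are not given in the sources used here. Methylated reads were recovered as coverage times percent, and all products were whole within the rounding of the deposited percents.

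Reads were summed over C positions listed in every library of a fit, in 1000-bp tiles (3 positions or more) and gene windows (5 or more), with gene spans from RefSeq GRCm38.p6. Groups were compared by a quasi-binomial logistic model (R 4.3.3) whose dispersion was moderated by limma 3.58.1 and kept at 1 or above, and adjusted p-values are Benjamini-Hochberg values over all features of the genome. The script was tested on simulated data. All 4 groups shared the dispersion for control GMP against control LSK and for the interaction. Alternatives were a coverage minimum of 20, other position minimums, a grid moved by 500 bp, gene spans without flanks, a dispersion prior from features at 5 to 95%, a dispersion shared by all groups, limma on logit levels (0.5 reads added), positions of equal weight, and leaving out each library; the sets by Y positions were added after seeing the data. Named tiles are those called, those with the largest knockout difference of each gene in LSK and in GMP, and those at gene ends. Some tiles named fall outside these rules, among them the Tcf7 tile with 58 positions. That tile holds a listed start and no gene end, and is the only tile of these genes with an adjusted p under 0.05 in LSK. The genes and lists were chosen with earlier results of these data known. Whether a tile is exonic or intronic was not determined here. Bisulfite reads do not separate methylated from hydroxymethylated cytosine, and reads carry no molecular identifiers.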

Additional observations from a re-analysis of the deposited data

How the results depend on the processing

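No paired analysis was possible because the groups share no replicate numbers. In the knockout comparisons and in the difference of the knockout effects, 0 member tiles and 0 member gene windows were called under the alternatives run, except that without knockout LSK 1327 1 tile was called, in Pax5, so leaving out 1 library gave 0 to 1. With limma on logit levels those tile comparisons called 0 tiles of the genome, and most alternatives in GMP did too, so their 0 says nothing about these genes. The 1 tile called between control GMP and control LSK, in Dntt, became 0 with limma on logit levels, with positions of equal weight, with at least 5 C positions, with no minimum of C positions and with only the libraries rich in Y positions, and was 0 to 1 when a library was left out; with the grid moved by 500 bp 1 tile was called. Leaving out a knockout library changes only the dispersion there. Gene windows in that comparison numbered 0 to 1 when a library was left out (Dntt, at an adjusted p of 0.0286 without knockout LSK 1327 and 0.0124 without 1333).

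Signs reversed only at differences that were not called; the cause was not tested. With positions of equal weight the gene window differences were 0.310 points in LSK for Ikzf3, -0.718 (Ebf1), -1.12 (Pax5), -0.468 (Bcl11a) and -0.691 (Bcl11b) in GMP, and 0.402 (Ikzf3) and -0.0310 (Bcl11a) between control GMP and control LSK. With only the 4 LSK libraries of few Y positions the knockout difference was 0.252 points for the Dntt tile and window, -0.163 for Ikzf1 and -0.643 for Bcl11b; with only the libraries rich in Y positions Tcf7 was at 0.175 between the controls. Leaving out a library gave tile ranges of -5.05 to 0.493 points (Ikzf3, LSK), -5.50 to 1.34 (Ikzf1, GMP) and -15.9 to 5.04 (Tcf3, GMP), and gene window ranges in LSK of -0.387 to 0.968 (Ikzf1), -1.33 to 0.591 (Pax5), -4.68 to 0.199 (Tcf3), -2.13 to 0.110 (Bcl11a) and -0.0605 to 1.24 (Bcl11b), in GMP of -1.89 to 1.26 (Tcf7), -0.0423 to 1.19 (Bcl11b) and -1.46 to 0.845 (Ikzf1), and between the controls of -2.22 to 1.01 (Tcf7).

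Of 222 recomputed tile differences 203 kept direction and call, and of 351 gene window differences 325 did. Coverage summed over listed C positions was 95.4 to 109.7 M (M, 1e6) in GMP libraries, with 2 libraries a group, against 157.4 to 181.1 M in LSK. A read counts once for each C position it covers.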

Other observations

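GMP library 352, whose labels conflict on the genotype, was set beside the 4 grouped GMP libraries at 114 tiles of these genes. It lay below both control GMP libraries at 49 tiles, above both at 30 and between them at 35, and below all 4 grouped libraries at 29 and above all 4 at 18. The same counts were not made over all tiles of the genome, so these do not show whether library 352 stands apart at these genes. At the Dntt tile it had 6.38% (95% Wilson interval 4.36% to 9.24%, 392 reads summed over 5 positions), beside 6.75% and 16.9% in GMP labelled knockout and 7.06% and 5.47% in control GMP. At the Bcl11a tile 50.8 kb downstream of the start it had 3.92% (2.35% to 6.47%), beside 11.3% and 7.12% in GMP labelled knockout and 22.0% and 21.4% in control GMP. At the Bcl11b tile 31.9 kb downstream of the start it had 73.4% (61.5% to 82.7%), beside 42.6% and 42.1% in GMP labelled knockout and 65.8% and 75.9% in control GMP. Upstream of Tcf7, at the tile 1.49 kb before the nearest start, it had 4.18% (3.14% to 5.55%), beside 6.69% and 7.44% in GMP labelled knockout and 11.6% and 7.99% in control GMP. The intervals cover counting error only, and positions on the same reads are not independent.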
